A study of Zea mays with 12 samples.

Results

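The rows described here are stretches of the maize genome that gave reads but carry no maize gene identifier. They were chosen by 3 conditions: the row had a genome interval as its name and no GRMZM or _FG identifier, it was not named for an assembled contig alone, and its counts summed to at least 100 over the 12 libraries. Of 21171 such rows, 5506 reached that sum, out of 194389 features in all, of which 29723 were maize gene rows and 143494 were contigs assembled from reads that had not aligned. The sum chose the members, so their abundance is given as a description. At the limit, 25 rows had a sum of exactly 100 and were kept, among them chr10:10480496-10481490, chr10:146796698-146797269 and chr1:100610053-100610216. Another 27 rows had a sum of 99 and were left out, among them chr10:23240493-23240643, chr1:12315429-12315988 and the row that begins at chr1:169023883-169024662.

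The libraries were made by massive analysis of 3′ cDNA ends (MACE), which sequences a fragment near the polyadenylated end of each transcript, from stems of the maize inbred line used in the study. The 4 treatments, with 3 libraries each, were untreated plants (control), plants on which *Sesamia nonagrioides* larvae were placed between sheath and stem (larva), plants whose sheaths were cut with a scalpel and given phosphate-buffered saline (wounding), and plants whose cuts were given caterpillar regurgitate in that buffer (regurgitate). Stem tissue was taken at day 15 from an undamaged section, so every treatment was read away from the cut or the bite. Wounds were renewed during the experiment, and the labels and the methods differ on the developmental stage at which it began. The labels call the 3 libraries of a treatment biological replicates.

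Transcripts fall outside a gene annotation for several reasons that are known from plant genomes. Gene models can stop short of the 3′ end that a tag method reads, recent duplicates and transposable elements are often masked before genes are predicted, and genes present in one inbred can be missing from the reference of another. Long terminal repeat retrotransposons of the copia and gypsy types make up much of the maize genome, encode a gag protein and a pol polyprotein with protease, integrase and reverse transcriptase, and are mostly silent in healthy tissue.

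The name "unannotated" holds for the gene identifier and not for what is known of the sequence. A database match was attached to 5115 of the 5506 members (92.9%). By the first match named, 3008 had a nucleotide entry, 2004 an unreviewed protein entry and 103 a reviewed Swiss-Prot protein. The other 391 had no match, and all 391 were single intervals. Through a locus number, transcript accession, symbol or clone name in the match, 783 members could be tied to a RefSeq gene of the NAM-5.0 assembly, of which 726 were protein-coding, 29 were long noncoding RNAs and 23 were pseudogenes, transcribed or not. Of the 251 single intervals on nuclear chromosomes with such a tie, 175 lay on the chromosome of the RefSeq gene. The RefSeq gene of 202 members also had a maize gene row in the table, and in 79 of these the member was the more abundant of the pair.

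The members were built in 3 ways. A single interval made up 1985 of them, with a median length of 551 bp. Several intervals were joined under a shared match in 2387, with a median of 4 and up to 118 intervals, and 2063 of the 2387 spanned more than 1 chromosome. In the remaining 1134, intervals were joined with at least 1 contig, and up to 87. Joined rows carry the counts of every copy, so their first interval, by which they are called below, is not their only place in the genome. First intervals lay on the nuclear chromosomes in 5343 members, from 376 on chromosome 10 to 775 on chromosome 1, and 144 lay on scaffolds, 15 on the mitochondrial and 4 on the plastid genome.

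Members were less abundant than annotated genes. Their median sum was 347 counts against 1350 for the 19740 maize gene rows that also reached 100, and 22.8% of the members against 59.2% of those gene rows had a sum of at least 1000. At least 1 count was present in all 12 libraries for 4773 members (86.7%) and for 94.1% of the gene rows.

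The 12 libraries held 5651382 to 10056972 counts, of which 3571720 to 9113885 fell on genome features (gene rows and intervals together). Regurgitate replicate 3 stood apart: it had counts on 5036 members against 5422 to 5481 in the other 11 libraries. It was the lowest of the 12 by over 4-fold for 962 of the 5506 members, where no other library was so for more than 51. Among the 19740 maize gene rows that reached 100 it was also the lowest by over 4-fold for 719, a much smaller share. Wounding replicate 2 was so for 331 gene rows, and each remaining library for at most 119. Of these 962 members 536 joined several intervals, 220 were joined with contigs and 206 were single. Contigs took 1.03% of the counts of regurgitate replicate 3, against 19.2% and 48.0% in the other regurgitate libraries. For larva replicates 2 and 3, chi-square divided by its degrees of freedom was 1.49 over 5145 members, where the 11 other pairs within a treatment gave 5.28 to 76.9, so they differed by more than counting noise but by much less than other replicates. Among marker genes, cellulose synthase 12 of the secondary wall had between 1.11 and 9.72 counts per 1000000 (CPM) and cellulose synthase 11 between 0 and 21, the third identifier fixed as a wall marker (GRMZM2G445905) is described in the file as a translation initiation factor, and 18 rows for chlorophyll-binding proteins and Rubisco small subunits summed to 3208 to 7485 CPM.

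CPM values here are counts on a feature per 1000000 counts on genome features, after scaling each library by the trimmed mean of M values (TMM), which assumes that most features do not change. The plot of each library against the median of the others shows how the level depends on the way a row was built. In regurgitate replicate 3 the median log2 ratio was 0.09 for maize gene rows and -0.11 for single intervals, then -0.71 for 2 to 5 intervals, -1.24 for 6 to 20 and -1.74 for over 20. In wounding replicate 2 it went the other way, from 0.02 for 2 to 5 intervals to 0.61 for 6 to 20 and 1.44 for over 20. The number of intervals in a row and the library therefore moved together, and what produced this in either library was not tested.

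**Figure D1:**
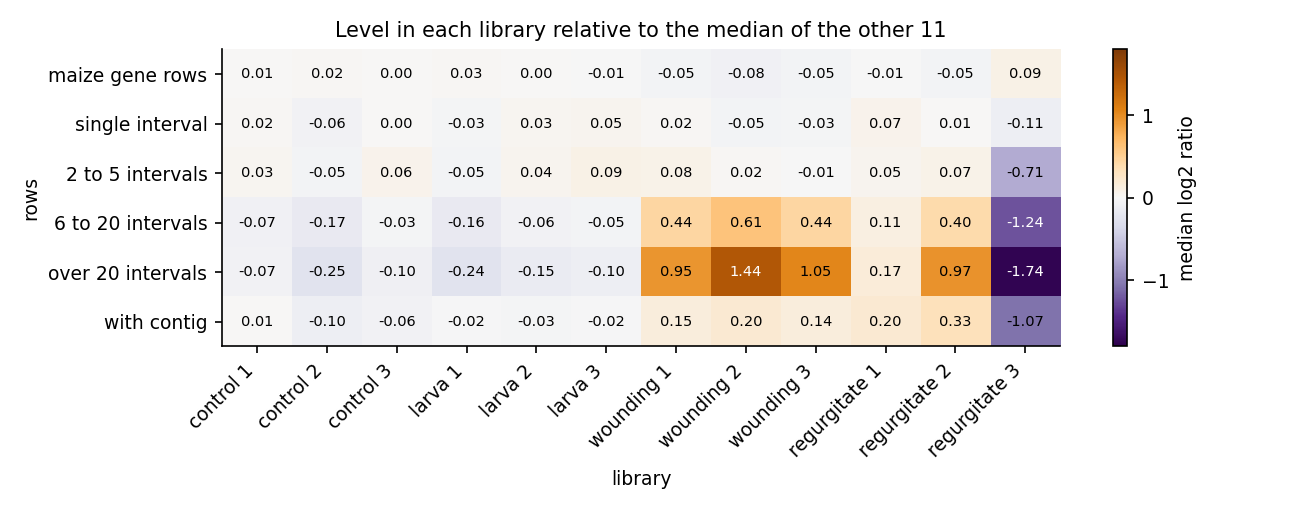
Each cell is the median, over the rows of a class, of the log2 ratio between a library's CPM (plus 0.5) and the median of the other 11 libraries; columns are the 12 libraries and rows of the map are maize gene rows and members by number of joined intervals. The 3 wounding libraries reach 0.95 to 1.44 and regurgitate replicate 3 falls to -1.74 in members of over 20 intervals, while maize gene rows stay between -0.08 and 0.09.

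The share of genome-feature counts that lay on members was alike in control and larva libraries and higher in wounding. It was 8.0%, 7.47% and 8.10% in the control libraries and 7.53%, 7.85% and 8.04% in the larva libraries, which overlapped. It was 9.29%, 10.1% and 9.15% in the wounding libraries, all above the controls. In the regurgitate libraries it was 9.21%, 14.1% and 5.56%, the widest spread of the 4 treatments. The exact permutation test over all 369600 arrangements of the 12 libraries gave p = 0.682, and p = 0.0194 without regurgitate replicate 3. That library was left out after its low share was seen, so no conclusion is drawn from the second p. For wounding with control the difference was 1.67 percentage points, at the smallest two-sided p that an exact permutation test of 3 against 3 can give (p = 0.1, adjusted p = 0.4 over the 4 pairs). That direction depends on the denominator: of all counts, contigs included, members held 7.06% ± 0.531 (SD, n = 3) in wounding and 7.59% ± 0.282 (SD, n = 3) in control libraries. The other pairs, larva with control, regurgitate with wounding and regurgitate with control, differed by -0.05, 0.11 and 1.78 points with exact permutation p of 0.8, 0.9 and 0.7.

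Joined rows and single intervals went opposite ways in this share. Single intervals held 2.23%, 2.19% and 2.13% in the wounding libraries, all below the 2.27% to 2.68% of the controls. Several joined intervals held 3.43%, 4.07% and 3.55% against 2.71%, 2.67% and 2.93%, and rows with contigs 3.62%, 3.89% and 3.47% against 2.60%, 2.54% and 2.76%, without overlap in either class. The direction for single intervals depends on scaling: in TMM-scaled CPM they summed to 25145, 27621 and 25499 in wounding, all above the 24662, 20920 and 20545 of the controls. Over the 4 treatments the exact permutation p was 0.0613 for single intervals, 0.462 for several intervals and 0.221 for rows with contigs. Adjusted over the 4 shares tested, these were 0.245, 0.616 and 0.442. Without regurgitate replicate 3 the unadjusted values became 0.111, 0.0814 and 0.000584. That library was left out after its low level on joined rows was seen, so no conclusion is drawn from these.

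**Figure D2:**
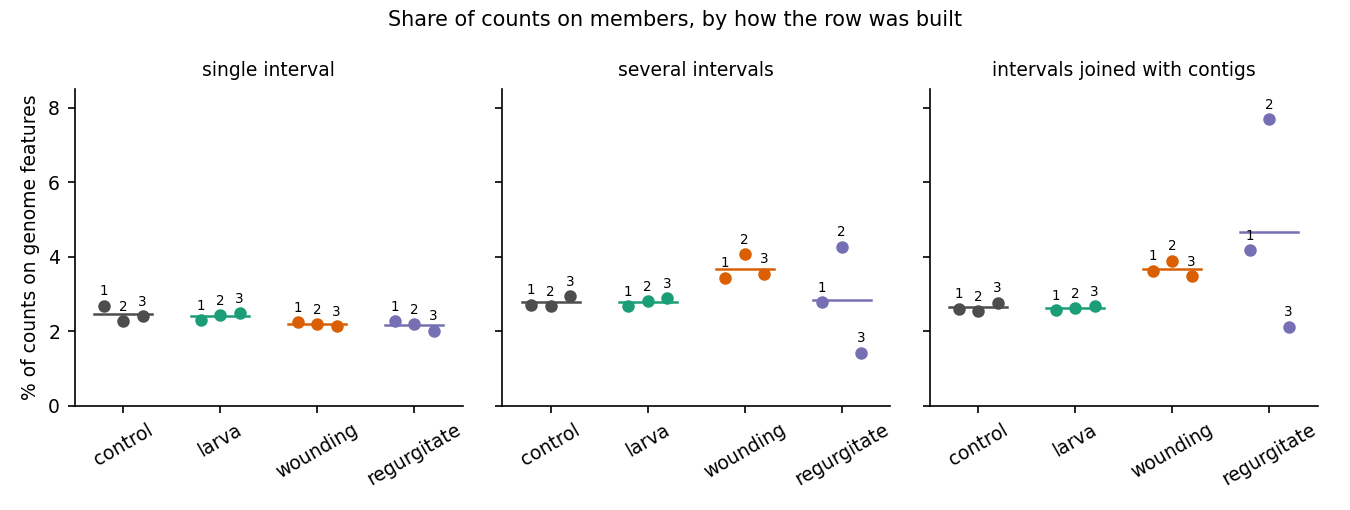
Percent of counts on genome features that lay on members, by how the row was built, in each library (numbers are replicates, short lines are means of 3). Wounding libraries lie above the controls for several intervals (3.43% to 4.07%) and for intervals joined with contigs, and regurgitate libraries run from 1.43% to 4.27% and from 2.12% to 7.69% in those classes.

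Wounding gave the most called members of the 4 pairs tested with edgeR, at a share close to that of all features. Against control, edgeR's quasi-likelihood test called 1820 of the 4992 members tested at a Benjamini-Hochberg adjusted p (FDR) under 0.05, which is 36.5% beside 38.5% of all 24312 features tested. A further 514 members were too low for the filter, and a member that passed it only through the treatment where it is high had to differ, so these counts describe the members tested. Of the 1820, 1235 were higher and 585 lower in wounding, against 19.9% of all features higher and 18.6% lower, so members were called higher in 24.7% and lower in 11.7%. The balance depends on scaling. With total counts in place of TMM, log2 fold changes moved by -0.40 in the median, 47% of all features were called, and 981 members were higher (beside 13.9% of features) and 1131 lower (beside 33.2%), which is 46.4% higher in place of 67.9% of those called. Among maize gene rows, total counts took the share higher from 47.3% to 25.1% of those called. With contigs included in the fit, 50.7% of all features were called, and members were called higher less often than features: 1003 were higher (19.7%, beside 31.4% of features) and 842 lower (16.5%, beside 19.3%).

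The direction in wounding followed the number of places joined in a row. Among all features tested, 19.9% were higher and 18.6% lower. Single intervals had 320 higher (18.3%) and 267 lower (15.2%) of 1751 tested and a median log2 fold change of -0.02, close to the -0.06 of maize gene rows. Rows of 2 to 5 intervals had 245 higher (18.8%) and 177 lower (13.6%) of 1306, with a median of -0.01. Rows of 6 to 20 intervals had 284 higher (40.1%) and 33 lower (4.66%) of 708, with a median of 0.65, and rows of over 20 had 122 higher (57.3%) and 6 lower (2.82%) of 213, with a median of 1.12. These 2 medians stayed above 0 with total counts (0.24 and 0.70) and with each of the 6 libraries left out (0.54 to 0.65 and 1.08 to 1.25). The classes were drawn after the values were seen and are given without a test.

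Rows that join contigs showed the same gradient more steeply. The median was 0.13 for 656 members with 1 contig, 0.24 for 293 with 2 to 5, 1.03 for 51 with 6 to 20 and 4.25 for 14 with over 20. All 14 of the last class were higher in wounding (beside 19.9% of all features), and with total counts also, with a median of 3.82. Their summed level was 921, 616 and 720 CPM in the control libraries, 1803, 651 and 664 in the larva libraries, 4621, 12805 and 6001 in the wounding libraries and 5999, 26303 and 306 in the regurgitate libraries. The libraries that are high here are those in which contigs matched to fungal proteins took many counts. Such contigs, 19107 in number and found by a list of fungal genus names drawn up after the data were seen, held 0.501%, 0.238% and 0.427% of all counts in control, 3.31%, 0.223% and 0.236% in larva, 10.9%, 24.8% and 12.4% in wounding and 4.56%, 14.7% and 0.0603% in regurgitate libraries. Their part in the level of these members was not tested, and 12 members had a fungal protein among their own matches.

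**Figure D3:**
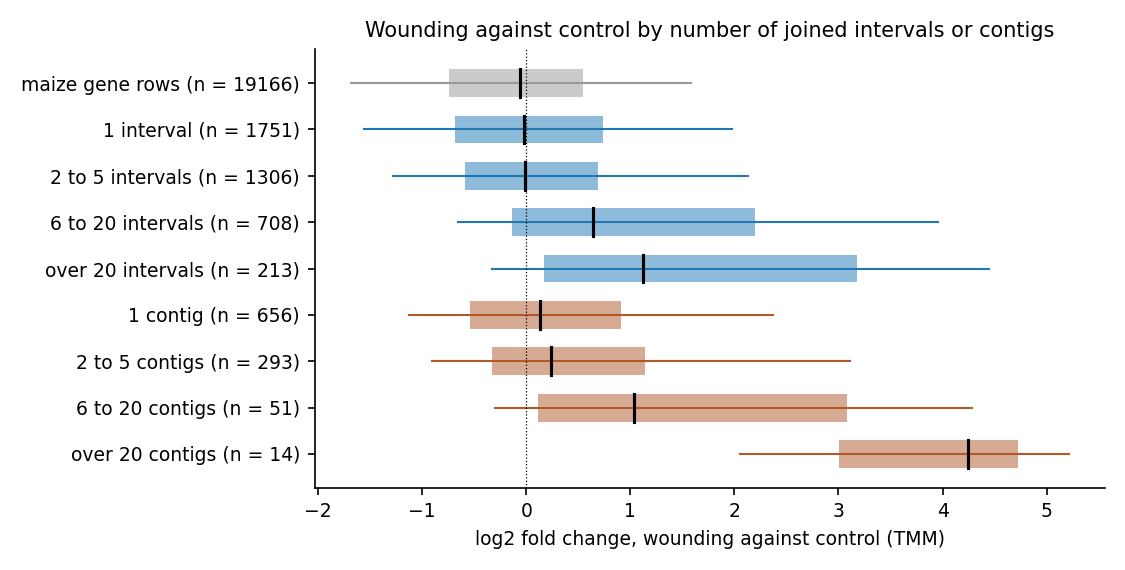
Distribution of the log2 fold change of wounding against control for features tested; black marks are medians, boxes span the quartiles and lines the range from the 10th to the 90th percentile. The median moves from -0.02 for 1 interval to 1.12 for over 20 intervals and to 4.25 for over 20 contigs, while maize gene rows have -0.06.

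**Figure D4:**
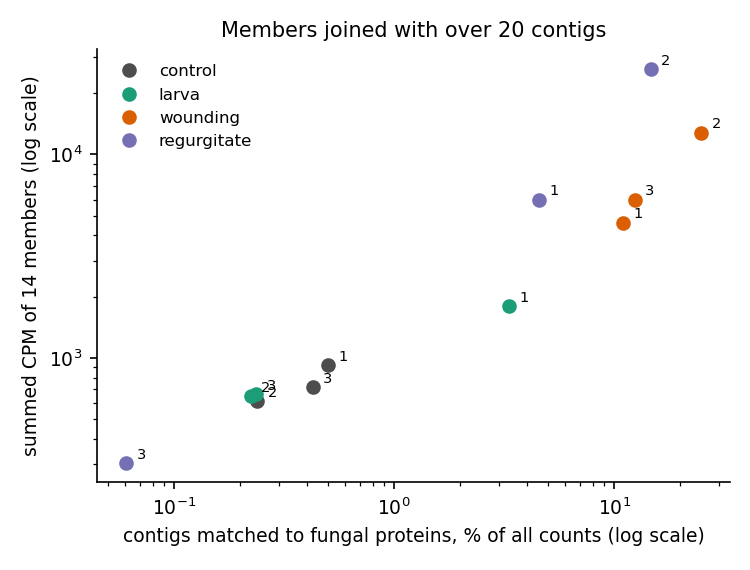
Summed CPM of the 14 members that join over 20 contigs against the percent of all counts on contigs matched to fungal proteins, for the 12 libraries (numbers are replicates, both axes logarithmic). The lowest library on both axes is regurgitate replicate 3 (306 CPM, 0.0603%), and larva replicate 1 (1803 CPM, 3.31%) lies apart from the other larva libraries.

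Retrotransposon and transposase proteins were called higher more often than lower in wounding. Of 57 members whose match is named so, 54 were tested in wounding with control, of which 25 were higher (46.3%, beside 19.9% of all features) and 2 lower (3.70%, beside 18.6%), with a median log2 fold change of 0.69 beside -0.02 for all features. Rows that join many intervals had like values whatever their match, with 40.1% higher and 4.66% lower for 6 to 20 intervals and 57.3% and 2.82% for over 20, so nothing particular to the family is shown. The family was chosen from the descriptions, and its median was 0.28 with total counts. Its summed level was 944, 855 and 892 CPM in control, 875, 875 and 923 in larva, 1779, 2738 and 2107 in wounding and 978, 2265 and 593 in regurgitate libraries. In such bulk stem samples fewer cells of a type and less RNA per cell cannot be told apart. Every wounding library was above every control and larva library, as were regurgitate replicates 1 and 2, while replicate 3 was below them all. A copia-type pol polyprotein at chr5:98947583-98947933, which joins 3 intervals, had 4.75, 4.09 and 3.95 CPM in control and 304, 269 and 190 in wounding, a log2 fold change of 5.89 with an edgeR FDR of 0.00021. The same row had 4.94, 2.89 and 4.28 CPM in larva and 4.62, 141 and 5.51 in regurgitate libraries, so it was high in a single library of the latter. A gag-pol polyprotein at chr1:200492783-200492912 and the Opie3 pol polyprotein at chr1:147806370-147806746, both of the long terminal repeat class, had log2 fold changes of 3.84 and 2.92 (edgeR FDR 0.0017 and 0.00081). The Cinful1 polyprotein at chr4:230126674-230126984, which joins 32 intervals, had 3.22 (FDR 0.0015). The DNA transposons differed among themselves: a Mutator-like transposase at chr5:15157692-15158066 rose by 3.09 (FDR 0.0013), while the row of the AC9 transposase, which joins 82 intervals, had 0.17 (FDR 0.49).

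Members without any match were called at about the rate of all members in wounding, with 80 higher (26.1%) and 35 lower (11.4%) of 306 tested beside 24.7% and 11.7%, and their median of 0.38 was -0.01 with total counts. Transcription factors, with 24 higher (25%) and 11 lower (11.5%) of 96, and proteins named for the plastid, the mitochondrion or their electron transport and ATP synthase complexes, with 24 (27.6%) and 11 (12.6%) of 87, were near that rate too. Among all features tested, 19.9% were higher and 18.6% lower. Pentatricopeptide repeat proteins, which process organelle RNA, had 2 higher (6.90%) and 2 lower (6.90%) of 29. Members named as kinases of any kind had 10 (13.9%) and 10 (13.9%) of 72. Disease resistance-like proteins had 1 (11.1%) and 3 (33.3%) of 9, and ribosomal proteins 10 (29.4%) and 6 (17.6%) of 34.

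The 3 members with the smallest p among those higher in wounding were all well above control in every wounding library. The row at chr4:13705912-13706827, an uncharacterized protein in a single interval, had 13.6, 13.9 and 12.8 CPM in control, 37.8, 11 and 13.0 in larva, 405, 491 and 391 in wounding and 78.7, 125 and 40.7 in regurgitate libraries. Its log2 fold change was 4.99 ± 0.22 (SE) with an edgeR FDR of 0.00021, and the regurgitate libraries lay between the controls and the wounding libraries without overlap with either. A neighbouring interval, chr4:13722901-13723593, went the same way, with 2.15, 5.26 and 1.11 CPM in control and 101, 115 and 134 in wounding (5.37 ± 0.52, FDR 0.00073). The row that begins at chr3:74108823-74108956, a hypothetical protein joined over 6 intervals, had 2.15, 1.75 and 1.98 CPM in control and 69.1, 79.8 and 55.0 in wounding (5.09 ± 0.24, FDR 0.00021). The row that begins at chr4:93676388-93676723, from a transcript assembly, joins 5 intervals and had 5.17 ± 0.24 (FDR 0.00021). In the last row regurgitate replicate 2, at 42.4 CPM, lay above every wounding library, and the other regurgitate libraries had 4.02 and 0.988.

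Nearby single intervals that were both called in wounding mostly had the same direction. Of 164 neighbouring pairs at most 20000 bp apart on a nuclear chromosome, 119 had both intervals tested in wounding with control. Both were called in 25, and 21 of these had the same direction. Of 1746 pairs further apart, 1366 had both tested, 160 had both called and 87 had the same direction. Some of the 25 pairs name the same protein in both intervals, at gaps of 100, 100 and 2193 bp, and may be pieces of a transcript. Whether neighbours belong to the same transcript was not tested, so the counts do not separate neighbours from such pieces. The same count was not made for maize gene rows.

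Of the 3 members with the smallest p among those lower in wounding, an interval and a row of several intervals were near 0 there and a row with a contig was not. An interval with no match at chr7:172763700-172765044, 1344 bp long, had 42.3, 26.5 and 31.1 CPM in control, 30.3, 16.5 and 17.8 in larva, 0.671, 1.92 and 1.2 in wounding and 14.5, 2.95 and 22.4 in regurgitate libraries. Its log2 fold change was -4.73 ± 0.38 (SE), with an edgeR FDR of 0.00046. The row that begins at chr9:110562330-110563170, from an mRNA clone, had 21, 9.36 and 16.4 CPM in control and 0.168, 0.384 and 0.199 in wounding (-5.88 ± 0.52, FDR 0.00055). In regurgitate libraries it had 6.23, 0.328 and 18.8 CPM, which spans both. The row at scaffold_404:895-1236, an uncharacterized protein joined with a contig, had 139, 161 and 164 CPM in control and 29.5, 17.3 and 29.3 in wounding (-2.62 ± 0.25, FDR 0.00072).

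With 4 treatments tested together, 1347 of 5445 members differed (24.7%, beside 30.2% of 26280 features), and the 5 with the smallest p were all highest in wounding. An uncharacterized locus that begins at chr2:21471054-21471183 had 0.565, 0.146 and 0.371 CPM in control and 17.1, 32.1 and 30.7 in wounding, and the interval at chr4:13722901-13723593 was also among the 5. A pair of them were AP2-EREBP transcription factors, the family of plant regulators that holds the ethylene response factors. EREB117, joined over 3 intervals from chr3:110272256-110273323, had 8.03, 6.87 and 8.52 CPM in control, 14.6, 10.6 and 11.2 in larva, 950, 974 and 550 in wounding and 116, 422 and 102 in regurgitate libraries. Its levels in wounding were above all others, those in regurgitate above all controls, and the 4-treatment edgeR FDR was 0.0001. The log2 fold change was 6.71 ± 0.36 for wounding with control (FDR 0.00021) and 0.62 ± 0.20 for larva with control (FDR 0.42). EREB134, a single interval at chr8:173838227-173839909, had 15.1, 18.3 and 19.0 CPM in control, 113, 79.5 and 95.4 in wounding and 42.2, 27.3 and 37.4 in regurgitate libraries, with 2.45 ± 0.21 for wounding with control (FDR 0.00051). The fifth, named for a serine/threonine protein kinase and beginning at chr1:224481595-224481722, had 3.96, 1.17 and 1.98 CPM in control, 58.9, 45.3 and 100.4 in wounding and 5.83, 8.54 and 10.4 in regurgitate libraries.

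**Figure D5:**
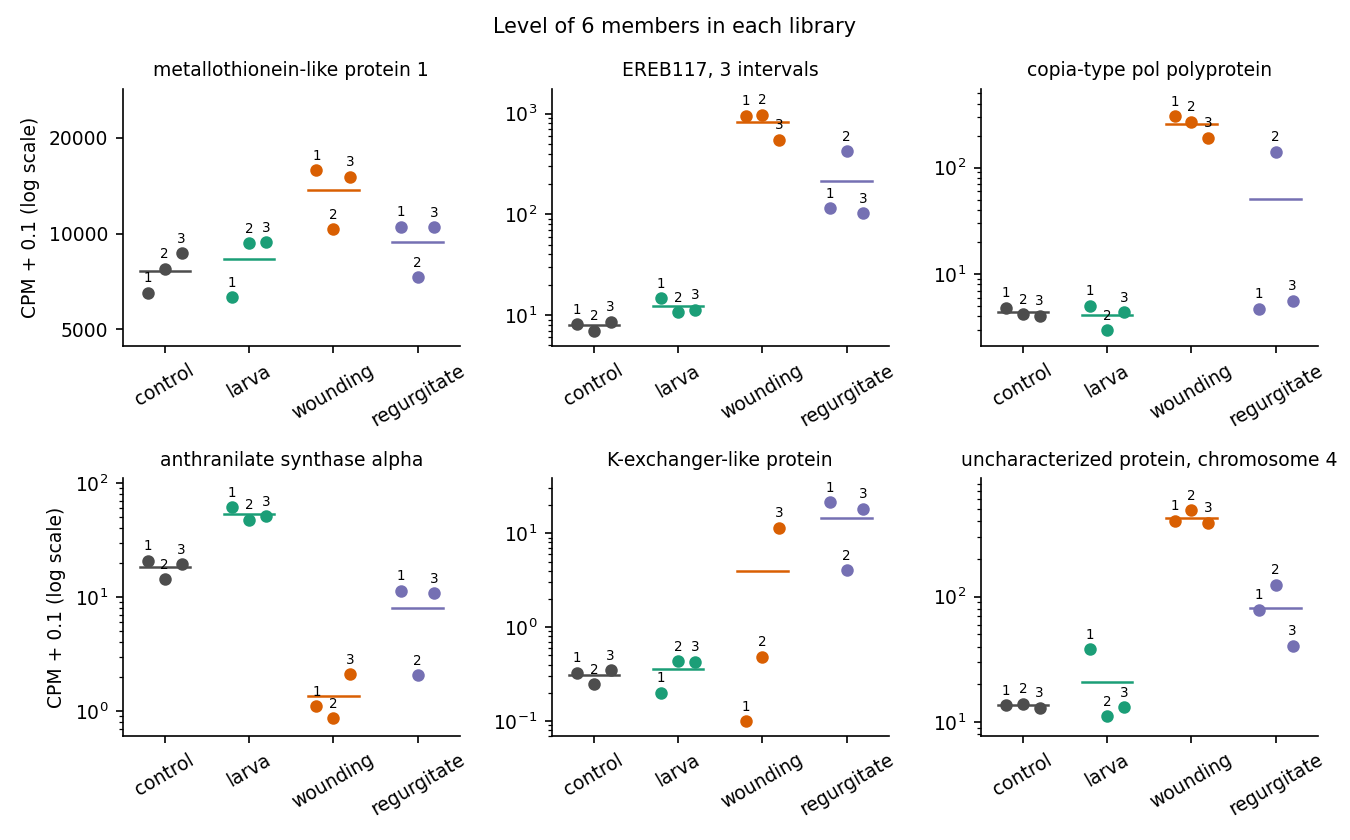
CPM plus 0.1 of 6 members in each of the 12 libraries on a logarithmic axis (numbers are replicates, short lines are means of 3). EREB117 and the copia-type polyprotein are highest in wounding, anthranilate synthase is highest in larva and lowest in wounding, and the copia-type polyprotein is high in regurgitate replicate 2 (141 CPM) alone among the regurgitate libraries.

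Feeding larvae left few detectable marks on members, as on all features tested. Against control no member of 4906 tested, and no feature of 24868 (0%), was called by edgeR, while 351 members had an unadjusted p under 0.05. So did 1947 of 19612 maize gene rows, a larger share. DESeq2 called 22 members, which is 0.45% beside 1.04% of all features, with 11 higher (beside 0.487% of features) and 11 lower (beside 0.555%). The member with the smallest p was anthranilate synthase alpha subunit at chr1:295077655-295078131, the first enzyme of the branch from chorismate to tryptophan and indole. It had 20.8, 14.2 and 19.3 CPM in control and 61.1, 47.5 and 51.2 in larva, without overlap, and a log2 fold change of 1.54 ± 0.19 that missed the threshold (edgeR FDR 0.16). In wounding it had 1.01, 0.768 and 1.99 CPM, which is a fall of 3.85 on the log2 scale from control (± 0.37, FDR 0.00073), and in regurgitate libraries 11.2, 1.97 and 10.7. Anthranilate O-methyltransferase 1 at chr9:1992866-1993130, which makes the volatile methyl anthranilate, had 8.37, 1.17 and 1.98 CPM in control and 10.6, 22.3 and 22.1 in larva. The larva libraries were above every other library for this member, which was chosen by its share of CPM in larva.

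The other members with small p in larva plants were of low level, and none passed the threshold. A cell division cycle protein 20 interval at chr8:38775619-38776010 had 0.292 to 0.741 CPM in control and 2.67 to 3.23 in larva (2.32 ± 0.37, edgeR FDR 0.25), and an interval without match at chr10:22882918-22883157 had 1.46 to 3.62 and 8.07 to 9.33 (1.77 ± 0.33, FDR 0.25). Lower in larva were a row named for a zinc finger protein AEBP2-like, beginning at chr6:70484432-70484548 (-4.04 ± 0.55, FDR 0.19), an uncharacterized protein beginning at chr9:32227155-32227464 (-1.53 ± 0.25, FDR 0.25) and a transcript assembly beginning at chr6:100106067-100106837 (-1.53 ± 0.28, FDR 0.25).

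Regurgitate added to the wound was compared with wounding alone. No member of 4627 tested and no feature of 23186 (0%) was called by edgeR, with 527 members at an unadjusted p under 0.05. Maize gene rows had a larger share at that level, 3411 of 18318. DESeq2 called 204, which is 4.41% beside 6.88% of features, with 71 higher (beside 3.03%) and 133 lower (beside 3.85%). Without regurgitate replicate 2 edgeR called 23 of 4892 (beside 0.506% of features), 2 higher (beside 0.241%) and 21 lower (beside 0.265%). The members with the smallest p were chosen by their difference from wounding, so their place beside control is a description. The interval at chr4:13722901-13723593 had 9.24, 17.1 and 7.06 CPM with regurgitate against 101 to 134 with wounding alone (-3.38 ± 0.36, FDR 0.094). An uncharacterized locus at chr7:167526133-167526830 had 9.64, 8.21 and 4.52 against 42.6, 82.7 and 65.7 (-3.07 ± 0.39, FDR 0.12). Control libraries had 1.11 to 5.26 CPM for the former and 5.19 to 8.63 for the latter. The kinase row at chr1:224481595-224481722, given above, had -2.99 ± 0.39 (FDR 0.12).

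Higher with regurgitate than with wounding alone was a bHLH100-like transcription factor that begins at chr3:148102166-148102642, of a family of helix-loop-helix regulators. It had 16.5, 18.4 and 51.6 CPM in control, 10.5, 6.33 and 7.09 in larva, 0.671, 0.576 and 0.199 in wounding and 8.44, 6.57 and 3.95 in regurgitate libraries. The groups of wounding and regurgitate did not overlap, and the log2 fold change was 3.65 ± 0.57 (edgeR FDR 0.12). Regurgitate was also above wounding, without overlap, for a protein of unknown role at chr3:142924382-142925686, with 2.85, 1.34 and 3.39 CPM in wounding and 62.1, 16.4 and 76.9 with regurgitate (4.41 ± 0.69, FDR 0.12). Its controls had 42.6, 64.8 and 25.4 CPM. A clone-matched interval at chr10:93478715-93479624 had 5.37 to 5.98 CPM in wounding and 14.1 to 17.1 with regurgitate (1.44 ± 0.24, FDR 0.12). The controls of this interval had 11.6 to 12.3 CPM, below every regurgitate library.

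Regurgitate plants against control gave 7 called members of 4736 (0.15%, beside 0.621% of 23997 features): 5 higher (beside 0.563% of features) and 2 lower (beside 0.0583%). This count rests on the libraries used. Without regurgitate replicate 3 it was 197 of 5130 (3.84%, beside 2.94% of features), 190 of them higher (beside 2.49%) and 7 lower (beside 0.451%), and it was 0 without any 1 of the 3 controls or without regurgitate replicate 1. DESeq2 called 260 (beside 7.46% of features), 200 higher (beside 5.3%) and 60 lower (beside 2.16%). The 5 higher were EREB117 (4.79 ± 0.66, edgeR FDR 0.046), an uncharacterized protein at chr3:3832106-3832821 (2.97 ± 0.40, FDR 0.043), which was named after its values were seen, and the 3 that follow. An uncharacterized protein that begins at chr2:94441873-94442775 had 0.904, 0.585 and 1.24 CPM in control, 17.1, 28.8 and 14.3 in wounding and 14.7, 14.4 and 9.32 in regurgitate libraries (3.79 ± 0.41, FDR 0.03). A K-exchanger-like protein at chr2:162147535-162148661, of a family of membrane cation exchangers, had 0.226, 0.146 and 0.247 CPM in control, 0, 0.384 and 11.4 in wounding and 21.3, 3.94 and 18.2 in regurgitate libraries (6.01 ± 0.78, FDR 0.042). An interval from a transcript assembly at chr2:209157134-209157704 had no count in the control libraries and 27, 13 and 30 counts in the regurgitate libraries, which is at least 36.7-fold higher against a floor of 3 counts over the control group (FDR 0.043). With wounding alone this interval had 26, 18 and 12 counts. The protein at chr3:3832106-3832821 had 21.5, 46.1 and 21.7 CPM with wounding alone and 14.5, 8.54 and 10.2 with regurgitate.

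Lower with regurgitate were a row that begins at chr5:83169277-83170210, with 15.4, 7.46 and 9.63 CPM in control and 0.603, 1.31 and 0.988 in regurgitate libraries (-3.49 ± 0.47, edgeR FDR 0.043), and an interval at chr9:127784224-127784450. The latter had 29, 19 and 28 counts in control and 0, 0 and 1 in regurgitate libraries, a ratio of 48.3 with an exact 95% counting interval of 8.41 to 1932 (FDR 0.046). Both were also low with wounding alone: the former had 0, 2.50 and 0.398 CPM and the latter 1, 1 and 0 counts. An uncharacterized protein at chr7:1924842-1926159 had the third smallest p and missed the threshold (-1.94 ± 0.32, FDR 0.065). It had 3.21, 2.63 and 4.24 CPM with regurgitate and 3.19, 3.07 and 2.19 with wounding alone.

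Without regurgitate replicate 3, most of the members that passed were rows with contigs, 107 higher of the 190, with 52 single intervals and 31 rows of several intervals. For the 14 members of over 20 contigs the median log2 fold change was 4.24 with none called in edgeR on all 6 libraries, 4.81 with 12 higher without regurgitate replicate 3, and 2.43 with none called without regurgitate replicate 2. The levels of contigs given above move with these members, and their part was not tested.

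The most abundant members were mixed in build. A metallothionein-like protein 1, a small cysteine-rich metal-binding protein, joins the interval chr4:1078809-1079992 with 1 contig and had by far the highest sum, 757179 counts. It had 6528, 7762 and 8678 CPM in control, 6315, 9326 and 9385 in larva, 15816, 10327 and 15100 in wounding and 10515, 7288 and 10463 in regurgitate libraries. The wounding libraries were above the controls without overlap, and the fold change of 0.84 ± 0.46 on the log2 scale did not pass (edgeR FDR 0.19). Next came an uncharacterized protein at chr7:2725261-2725903, whose controls alone had 3466, 92.5 and 185 CPM, with 346, 1567 and 1505 in larva, 1386, 1595 and 1114 in wounding and 447, 277 and 194 in regurgitate libraries. No comparison passed, though regurgitate lay below wounding without overlap (-2.12 ± 0.41, edgeR FDR 0.12).

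Elongation factor 1-alpha, cytochrome c oxidase subunit 1 and ribosomal protein S4, which follow in abundance, joined 63, 14 and 49 contigs. The first, a core factor of translation that begins at chr9:121430366-121430521, had 184, 55.9 and 99.2 CPM in control, 459, 64.3 and 65.9 in larva, 1406, 4924 and 2038 in wounding and 1438, 7420 and 59.0 in regurgitate libraries (4.62 ± 0.70 for wounding with control, edgeR FDR 0.0027). High values in larva replicate 1 and in wounding and regurgitate replicates 2 match the libraries with many fungal-matched contigs, and this link was not tested. Cytochrome c oxidase subunit 1, of the mitochondrial respiratory chain, at chrMt:356138-356432, had 1381, 5707 and 44.0 CPM in regurgitate libraries and 351 to 420 in wounding. Its control replicate 1 had 619 CPM beside 118 and 124 in the others.

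Among abundant members lower in wounding were an uncharacterized protein that begins at chr3:71344325-71344812 (691, 585 and 375 CPM in control and 171, 160 and 276 in wounding, -1.45 ± 0.33, edgeR FDR 0.013) and ribosomal protein S19 from chr1:74221823-74221982 (-1.07 ± 0.25, FDR 0.014). The interval at chr4:2628012-2628441 missed the threshold (-1.06 ± 0.36, FDR 0.052), as did the row of GTP-binding nuclear protein Ran-A1, a nuclear transport GTPase, from chr6:165837213-165838453 (-0.39 ± 0.23, FDR 0.21). A row of 64 intervals from chr7:161222627-161223134 had 242, 229 and 275 CPM in control, 1040, 1135 and 1011 in wounding and 413, 1454 and 48.7 in regurgitate libraries (2.09 ± 0.23 for wounding, FDR 0.00098).

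Members whose first-named match is a reviewed protein are given by whether their rows held contigs. In wounding with control, where 19.9% of all features were higher and 18.6% lower, 45 of 80 tested with contigs were higher (56.2%) and 3 lower (3.75%). Without contigs 0 of 18 were higher and 4 lower (22.2%), the latter near the share of all features. Members that name a reviewed protein only after a nucleotide entry are not in these counts. Among them the single intervals of CNR9 (chr5:1729782-1729916) and CNR10 (chr5:1741405-1741721) were higher in wounding (4.31 and 6.43, edgeR FDR 0.0016 and 0.003). How many others of this kind were higher or lower was not counted. The 82 members with contigs summed to between 9674 and 10751 CPM in control and between 24977 and 30049 in wounding libraries, while the 21 without contigs summed to between 654 and 939 and between 612 and 762. Among the former were enzymes named for plant defence: 3-hydroxyindolin-2-one monooxygenase, of benzoxazinoid synthesis, with 21 contigs (38.2, 30.6 and 44.0 CPM in control and 349, 292 and 180 in wounding, 2.86, edgeR FDR 0.00092), and chalcone synthase C2, the entry enzyme of flavonoids, with 4 contigs (0.226, 0.439 and 0 against 7.04, 39.2 and 4.18, 6.18, FDR 0.0072). The benzoxazinoid glucosyltransferase BX8, with 1 contig, had 0.47 (FDR 0.31) and the methyltransferase BX7, with 5, had -0.28 (FDR 0.72). Since a maize protein name can be attached to a contig from another organism, these levels belong to the row and not to a maize gene.

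Members nearly particular to a treatment by share of CPM were chosen by that share and are given without a test. In control, early nodulin 93 at chr9:20619361-20620137 had 90.4% of its CPM there, but 494 CPM in replicate 1 beside 7.31 and 10.005, and the next, from chr3:145911172-145911246, had 14.2 CPM in replicate 1 beside 0.439 and 0.371. The cortical cell-delineating protein at scaffold_159:1035-1359, the interval without match at chr6:131594926-131595747 and the clone at chr2:22253333-22254579 had 77.7% to 78.8%. In larva, 60S ribosomal protein L11-1 from chr2:111739145-111739548 (93.2%) and 40S ribosomal protein S12 from chr8:102020490-102020885 (80.9%) were high in replicate 1 alone, at 23.9 and 25.8 CPM. The others were a hypothetical protein at chr1:217472518-217474386 with 12.4, 29.1 and 35.8 CPM in larva, anthranilate O-methyltransferase 1 given above, and a clone from scaffold_495:250294-250441.

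In wounding, an interval at chr4:136272134-136272576 had its 100 counts in wounding libraries only, though 18.5 of its CPM were in replicate 3 beside 0.168 and 1.15. An uncharacterized protein from chr8:149328245-149328541 was high in all 3 libraries, with 19.6, 13.4 and 33.9 CPM in wounding and at most 0.371 in control. The rows from chr3:170702541-170702721, chr3:210898959-210899239 and chr2:231872043-231873173 had 94.6% to 96.6% and were uneven. In regurgitate, 4 of the 5 joined a contig and were near 0 in replicate 3: an mRNA clone from chr2:87609961-87610045 had 407, 1416 and 0.282 CPM, a resistance gene analog from chr2:57641013-57641281 had 494, 2492 and 0.847, and Protein Z from chr1:183830135-183830488 and a proteasome subunit from chr7:159279999-159280170 had the same order. The fifth, an interval without match at chr3:224959327-224959352, had 9.04, 33.5 and 2.96 CPM with regurgitate and at most 0.404 elsewhere.

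A member and the gene row of its RefSeq gene did not always move together. Of 144 such pairs tested in wounding with control, 50 members and 54 gene rows were called. Among all rows tested, 36.5% of members and 38.9% of maize gene rows were called. In 27 pairs both were called, and 18 of the 27 had the same direction. The pairs share a name and not always a sequence, and no test of their likeness was made.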

How the data were processed

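MACE libraries of 12 maize stem samples, 3 for each of 4 treatments, were analysed, grouped by their labels. As the study's methods state, the authors removed duplicate reads by their barcodes, aligned reads with Novoalign 3.00.05 to the Ensembl maize genome release 23, allowing up to 10 locations per read, assembled unaligned reads into contigs, and used DESeq. The deposited counts are raw reads per feature and library, and every value here starts from them. The deposited group means normalized by the authors, and their p-values, FDRs and log2 fold changes, which hold their own comparisons, were not used. The number of per-sample columns left unmapped was 0.

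Counts of gene rows and intervals were tested with edgeR 4.0.16 (limma 3.58.1, R 4.3.3): filterByExpr (minimum count 10, minimum total 15), TMM scaling, quasi-likelihood F tests on the 6 libraries of a pair or on all 12, and Benjamini-Hochberg adjustment over every feature tested, at 0.05. A standard error is the log2 fold change divided by the square root of F. DESeq2 1.42.0, other scalings, other filters, a replicate block and each library left out were tried. The fits and exact tests were tested on simulated data. Shares of counts were compared by two-sided exact permutation tests. The study's methods apply each treatment to different plants and do not pair them. In regurgitate with wounding, same-numbered libraries had correlations of 0.14, 0.33 and 0.14 for replicates 1, 2 and 3. The best other number gave 0.09, -0.16 and 0.06. The replicate block called 0 members there as well, and the values given for this pair are from the fit without the block.

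The members, lists and rules were chosen with earlier results of these data known. Named members are the 10 with the highest sum, the 3 with the smallest p in each direction of each pair, the 5 with the smallest p over 4 treatments, the 3 on each side of the limit of 100 counts, and the 5 with the highest share of CPM in each treatment among those counted in its 3 libraries. Described families and classes, and the reviewed and retroelement proteins named, were chosen after their values were seen. Counting intervals and floors cover counting error only. An edgeR p-value weighs a difference against the spread between the 3 libraries of a treatment, an estimate that draws on all features tested. An exact permutation p ranks a difference among the arrangements of these libraries.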

Additional observations from a re-analysis of the deposited data

Results flagged for a closer look

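Rows named for contigs alone are not members, and their mean share of all counts was above every control library in each other treatment. They held 25.4% of all counts in wounding and 22.8% in regurgitate libraries on average, against 2.34% to 4.12% in the controls. Contigs matched to fungal proteins held 16.05% and 6.43%, against 0.238% to 0.501% in the controls. In larva libraries the means were 4.30% and 1.26%, and they rest on replicate 1, with 7.53% and 3.31%. Larva replicates 2 and 3 had 2.65% and 2.73% on contigs and 0.223% and 0.236% on those matched to fungi. The regurgitate mean does not hold for replicate 3, which had 1.03% on contigs and 0.0603% on those matched to fungi.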

How the results depend on the processing

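Called members in wounding with control stayed within 1.5 times the 1820 above under every setting, from 1327 to 1739 with a library left out. Elsewhere counts moved. Without a filter 2 members were called in larva with control (0.0363%, beside 0.0491% of all features), 20 in regurgitate with wounding (0.363%, beside 0.355%) and 27 in regurgitate with control (0.490%, beside 0.779%). DESeq2 called 22, 204 and 260 in the same order. A fit of all 12 libraries called 189 in regurgitate with wounding (3.47%, beside 6.24% of features) and 188 in regurgitate with control (3.45%, beside 4.46%), and fitting every feature with contigs called 0 in the latter. With a library left out, the counts ran from 0 to 0 for larva with control, 0 to 23 for regurgitate with wounding (23 without regurgitate replicate 2), 0 to 197 for regurgitate with control and 739 to 1957 over 4 treatments (739 without wounding replicate 2). The cause was not tested. With single intervals and gene rows alone, a choice made after seeing the data, 570 single intervals were called in wounding with control beside 587.

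The replicate block called 0 members in regurgitate with control, where correlations of same-numbered libraries were below 0 and the numbers share only a name, 1396 in wounding with control and 1028 over 4 treatments.

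The share of counts on members reversed with all counts as denominator in 3 pairs: -0.305 points for regurgitate with wounding, -0.528 for wounding with control, -0.833 for regurgitate with control. It also reversed without organelle and scaffold members for regurgitate with wounding (-0.190). With a library left out it ran from -0.243 to 0.0881 for larva with control, -2.14 to 2.15 for regurgitate with wounding, -0.470 to 3.82 for regurgitate with control and 1.36 to 1.86 for wounding with control, and the 4-treatment p from 0.0194 to 0.802. All 24 named members compared in pairs kept their direction.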
